A study of Homo sapiens with 6 samples.

Results

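The transcripts of 10 genes for secreted vessel growth factors and their co-receptors were examined in AsPC-1, a cell line established from human pancreatic cancer. The genes were VEGFA, VEGFB, VEGFC, PGF, PDGFA, PDGFB, PDGFC, NRP1, NRP2 and ANG, chosen by their symbols among the 58735 genes of the count table, and all 10 were found. The study compared cells labelled WT that had received an empty virus (Vector, n = 3) with cells labelled MMP28 overexpression that had received a lentivirus with MMP28 cDNA (OE-MMP28, n = 3), MMP28 being a metalloproteinase that cells release. Both populations were described as stably infected and selected with puromycin, the overexpression virus also carried GFP, and neither the promoter driving the cDNA nor whether the triplicates came from separate cultures was given in the sources used here. The p-values therefore measure the spread between these samples, which may be technical. In RNA from whole cultures, fewer cells expressing a gene and less RNA per cell cannot be told apart.

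Vascular endothelial growth factors are secreted dimers that bind tyrosine kinase receptors on endothelial cells and drive vessel growth and leakiness. Platelet-derived growth factors belong to the same structural superfamily and act mainly on fibroblasts and pericytes through their own pair of receptor kinases. Neuropilins are transmembrane co-receptors that bind both heparin-binding VEGF forms and class 3 semaphorins, whose signal they pass on with plexins, and angiogenin is a secreted ribonuclease that stimulates vessel growth. Pancreatic cancer cells release several of these ligands into a tissue rich in fibroblasts and macrophages.

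MMP28 itself rose in the OE-MMP28 group, from 7.57 ± 2.11 to 14.0 ± 1.01 FPKM (SD, n = 3 each), with a log2 fold change of 0.90 (edgeR adjusted p = 0.00226). FPKM denotes fragments per kilobase of exon length, scaled by a deposited factor per library that differed from the summed counts by -2.01% to 2.02%. Fold changes and adjusted p-values come from edgeR's quasi-likelihood test on the counts of 15319 genes, with Benjamini-Hochberg adjustment over all of them. A gene was called at an adjusted p under 0.05. Total counts lay between 13633249 and 16691458 per library, and mitochondrial genes took 8.80% to 14.8% of them. All 8 markers of ductal epithelial cells passed the count filter. Their summed level was 2688 to 3672 FPKM in Vector and 3636 to 4447 FPKM in OE-MMP28, mostly from KRT8, KRT18 and KRT19. KRT7 was low, at 1.14 ± 0.503 FPKM in Vector and 1.81 ± 0.559 FPKM in OE-MMP28. The 8 endothelial markers together reached 0.101 to 0.190 FPKM in Vector and 0.253 to 0.345 FPKM in OE-MMP28, with TEK, ERG and EMCN at 0 in every library. Macrophage markers summed to 1.06 to 1.19 FPKM in Vector and 0.794 to 0.955 FPKM in OE-MMP28, mostly from CD14. CD14 went from 0.970 ± 0.0943 to 0.635 ± 0.0901 FPKM and was not called (edgeR adjusted p = 0.243). PTPRC and CD163 had at most 1 count per library. Fibroblast and pericyte markers summed to 35.9 to 42.4 FPKM in Vector and 40.0 to 58.0 FPKM in OE-MMP28, nearly all from LUM, while COL1A2 and COL3A1 had at most 1 and 2 counts. Among these markers PECAM1 was called higher at low counts (0.0244 ± 0.0212 to 0.169 ± 0.0620 FPKM) and ACTA2 lower (1.68 ± 0.243 to 0.689 ± 0.116 FPKM), as were 2 ductal markers in each direction, and their part in the results was not tested.

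Of the 10 genes, 8 had enough counts to be tested. Among them 1 was called higher in OE-MMP28 (NRP2) and 3 were called lower (VEGFA, PGF and ANG), against 11.7% called higher and 11.6% called lower among all genes tested. The remaining 4, namely VEGFB, PDGFA, PDGFB and NRP1, did not pass the threshold. With an absolute log2 fold change over 1 as a further requirement, PGF and ANG stayed on the list, and 7.38% of all genes tested met both conditions. Of the 8 tested genes, 6 had FPKM values without any overlap between groups, as did 38.1% of all genes tested. For PDGFA this depended on the deposited scaling. The median log2 fold change was -0.14 over the 8 genes and 0.01 over all genes tested.

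**Figure D1:**
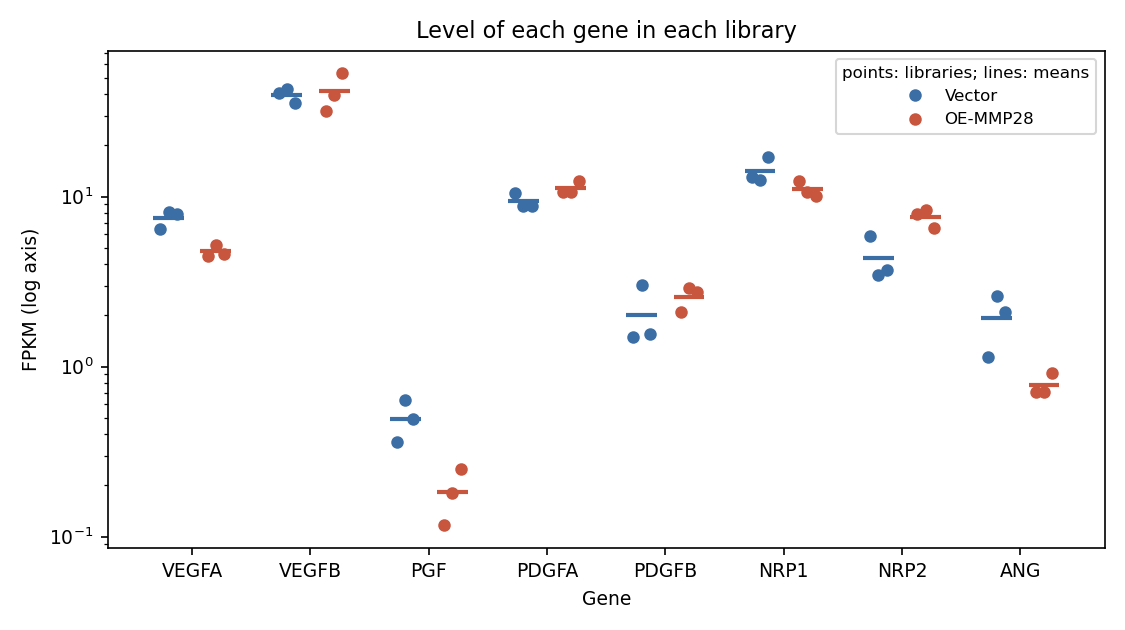
FPKM on a log axis for the 8 tested genes, with 1 point per library and a line at the mean of each group (Vector left, OE-MMP28 right). NRP2 points lay higher and VEGFA, PGF and ANG points lower in OE-MMP28, while VEGFB and PDGFB points of both groups overlapped.

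Among the VEGF ligands, VEGFA and PGF were lower in OE-MMP28 and VEGFB, the most abundant of the 10 transcripts per length, was not called. VEGFA, the main driver of endothelial growth, is encoded by ENSG00000112715 on the forward strand at chr6:43770184-43786487 (build GRCh38). Its counts were 1416, 1583 and 1671 in Vector replicates 1 to 3, and 1026, 1195 and 1112 in OE-MMP28 replicates 1 to 3. The highest OE-MMP28 count was thus below the lowest Vector count, although the OE-MMP28 libraries were deeper. The log2 fold change was -0.64 (SE 0.15, 95% interval -0.96 to -0.32, edgeR adjusted p = 0.00532), and without each library in turn it ranged from -0.73 to -0.57 with the call kept.

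The counts of VEGFA pool all its transcripts. The study also measured VEGFA by qRT-PCR, which reads a single stretch near the 3′ end of the gene. The primer pair is shown because it marks which annotated transcripts contain the stretch, and both sequences were given in the study's supplement.
VEGFA forward primer: ttcgcttactctcacctgcttctg
VEGFA reverse primer: gggctgcttcttccaacaatgtg
The forward primer matched chr6:43785438-43785461 and the complement of the reverse primer matched chr6:43785508-43785530, a product of 93 bases. Both sites were present in 5 of the 32 annotated VEGFA transcripts, of which 3 (VEGFA-204, VEGFA-205 and VEGFA-206) were among the 26 coding ones and held the product in their 3′ untranslated region. The other 2 were annotated as retained introns. No transcript of another gene contained either site. Annotated ends need not be the ends used in the cells, so which VEGFA transcripts the assay detected was not tested. The gene table does not resolve transcripts, so the part of the VEGFA counts that came from those 5 was not analysed here.

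Annotation also sets the scale of VEGFA's level. The length used for its FPKM was 14431 bases, the union of all annotated exons, including a retained-intron transcript of 12167 bases (VEGFA-212), whereas the longest coding transcript has 3535 bases. Per length of the longest coding transcript, VEGFA would stand at 30.5 ± 3.74 in Vector and 19.5 ± 1.63 in OE-MMP28 (SD, n = 3 each), 4.08 times the deposited scale in every library. This choice moves the level but not the fold change between groups.

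VEGFB, a ligand of FLT1 with little activity on vessel growth by itself, lies at chr11:64234538-64238793 on the forward strand (ENSG00000173511). It stood at 40.8, 43.2 and 35.6 FPKM in Vector and at 32.0, 39.8 and 53.1 FPKM in OE-MMP28. The OE-MMP28 values enclosed the Vector values from both sides. The log2 fold change was 0.08 with a 95% interval of -0.29 to 0.45 (edgeR adjusted p = 0.794), and it turned to -0.14 when OE-MMP28 replicate 3 was left out. Differences inside that interval could not be resolved with these libraries.

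PGF, placental growth factor, binds FLT1 and is encoded at chr14:74941834-74955784 on the reverse strand (ENSG00000119630). It was sparse, with 33, 51 and 43 counts in Vector and 11, 17 and 25 counts in OE-MMP28. All 3 OE-MMP28 values were below all 3 Vector values. The level fell from 0.495 ± 0.136 to 0.182 ± 0.0663 FPKM, a log2 fold change of -1.41 (SE 0.38, edgeR adjusted p = 0.00976). The call was kept without each library in turn, with log2 fold changes from -1.72 to -1.19.

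VEGFC, the ligand that drives lymphatic growth, lies at chr4:176683538-176792727 and was practically undetected, with 1 count in OE-MMP28 replicate 2 and 0 in the other 5 libraries. A count of 0 allows up to 3 counts, or between 0.180 and 0.220 CPM (counts scaled to the library total) at these depths, and such limits cover counting error only.

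Neither of the expressed PDGF ligands was called, although both had higher means in OE-MMP28. PDGFA, which forms the A chain of PDGF dimers, is encoded at chr7:497258-520296 on the reverse strand (ENSG00000197461). Its level was 10.5, 8.82 and 8.81 FPKM in Vector and 10.7, 10.7 and 12.4 FPKM in OE-MMP28. The groups did not overlap, though Vector replicate 1 lay just under the OE-MMP28 values. The deposited scaling factor differed from the summed counts by 2.02% in Vector replicate 1 and -2.01% in OE-MMP28 replicate 1. Scaled to the summed counts, PDGFA overlapped between the groups. The log2 fold change was 0.28 with a 95% interval of -0.06 to 0.61 (edgeR adjusted p = 0.223).

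PDGFB, the B chain and the ligand that recruits pericytes, is encoded at chr22:39223359-39244751 on the reverse strand (ENSG00000100311). Vector libraries had 86, 154 and 86 counts, and OE-MMP28 libraries had 125, 172 and 174 counts. Vector replicate 2 stood apart from the other Vector libraries and above OE-MMP28 replicate 1. With all libraries the log2 fold change was 0.37 (95% interval -0.17 to 0.91, edgeR adjusted p = 0.328), and without Vector replicate 2 it was 0.77 (edgeR adjusted p = 0.0275), so that single library decides the call. PDGFC, at chr4:156760454-156971394, had 1 count in Vector replicate 2 and 1 in OE-MMP28 replicate 3 and was not tested.

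Of the neuropilins, NRP2 rose in OE-MMP28 and NRP1 was not called. NRP2 lies at chr2:205681990-205798133 on the forward strand (ENSG00000118257) and encodes the co-receptor best known for binding VEGF-C and semaphorin 3F. Counts were 1242, 653 and 754 in Vector and 1737, 1833 and 1532 in OE-MMP28. Vector replicate 1 had the highest value of its group, still below every OE-MMP28 library. The level went from 4.33 ± 1.31 to 7.59 ± 0.924 FPKM (SD, n = 3 each), a log2 fold change of 0.82 (SE 0.18, 95% interval 0.44 to 1.20, edgeR adjusted p = 0.00316). This was the smallest adjusted p of the 10 genes, and leaving out each library gave log2 fold changes of 0.68 to 1.10, all called.

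NRP1, the co-receptor for VEGF-A and semaphorin 3A, is encoded at chr10:33177492-33336262 on the reverse strand (ENSG00000099250). It had 2289, 1944 and 2887 counts in Vector and 2264, 1936 and 1948 counts in OE-MMP28. After scaling to depth and length the levels were 14.2 ± 2.47 and 11.0 ± 1.24 FPKM, and the groups did not overlap, although Vector replicate 2 (12.5 FPKM) and OE-MMP28 replicate 1 (12.4 FPKM) nearly touched. The log2 fold change was -0.35 (95% interval -0.68 to -0.03) with an unadjusted p of 0.036 that did not pass after adjustment (edgeR adjusted p = 0.111).

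Angiogenin transcripts fell. ANG is encoded at chr14:20684177-20698971 on the forward strand (ENSG00000214274), with 25, 50 and 44 counts in Vector and 16, 16 and 22 counts in OE-MMP28. All OE-MMP28 values were below the lowest Vector value, which was replicate 1. The level went from 1.94 ± 0.733 to 0.776 ± 0.120 FPKM, a log2 fold change of -1.30 (SE 0.38, edgeR adjusted p = 0.0172). This call was lost without Vector replicate 2 (adjusted p = 0.0854), Vector replicate 3 (0.0575), OE-MMP28 replicate 1 (0.0533) or OE-MMP28 replicate 2 (0.0690), always with a negative log2 fold change.

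Counts of ANG need care because its first exons are shared with RNASE4, the neighbouring ribonuclease gene, on the same strand. Of ANG's annotated exon length, 47.2% also belongs to RNASE4, 19.3% to AL163636.2 on the same strand and 14.2% to AL163636.1 on the opposite strand. RNASE4 had at most 2 counts in any library, AL163636.2 had 0 in all and AL163636.1 had at most 5, and how shared reads were assigned was not tested. Antisense genes covered 1.30% of VEGFA's exon length (AL136131.3, 0 counts), 4.87% of NRP1's (AL121748.2, at most 3 counts) and 1.06% of NRP2's (AC007362.1, at most 7 counts).

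Promoter sequence from RefSeq (GRCh38.p14) was at hand for 6 of the 10 genes in 12 windows, and for VEGFA, PDGFB, PDGFC and NRP1 no sequence is shown. The stretches before an annotated start of NRP2, PGF and ANG are given because these 3 genes were called, NRP2 in one direction and the other 2 in the opposite one. The NRP2 and ANG stretches lie within the annotated span of their genes, before a start further inside, and the PGF stretch lies outside its gene. Capitals mark the GC box GGGCGG, the site read by SP1-type factors, on either strand.
NRP2 promoter (chr2:205682251-205682499, forward strand): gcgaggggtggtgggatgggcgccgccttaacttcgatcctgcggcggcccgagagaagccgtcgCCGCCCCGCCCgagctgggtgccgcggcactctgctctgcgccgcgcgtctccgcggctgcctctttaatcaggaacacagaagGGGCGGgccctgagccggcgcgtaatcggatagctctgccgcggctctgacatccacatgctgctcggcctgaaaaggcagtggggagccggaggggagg
PGF promoter (chr14:74955785-74956014, reverse strand): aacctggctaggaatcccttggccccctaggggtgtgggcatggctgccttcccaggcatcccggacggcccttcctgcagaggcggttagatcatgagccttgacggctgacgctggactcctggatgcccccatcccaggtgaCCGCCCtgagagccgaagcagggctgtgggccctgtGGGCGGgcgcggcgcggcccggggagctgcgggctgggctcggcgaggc
ANG promoter, shared with RNASE4 (chr14:20688514-20688763, forward strand): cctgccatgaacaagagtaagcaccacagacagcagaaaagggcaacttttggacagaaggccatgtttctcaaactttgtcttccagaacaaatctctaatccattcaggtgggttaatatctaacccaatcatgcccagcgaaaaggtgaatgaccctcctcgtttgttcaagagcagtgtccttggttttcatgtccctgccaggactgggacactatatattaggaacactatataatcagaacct
The NRP2 stretch held 3 GC boxes, 2 of them overlapping by a base, the PGF stretch held 2, and the ANG stretch held none, although another of ANG's 3 windows, chr14:20684310-20684609, held 2 in its upstream bases. G and C made up 69.9%, 70.9% and 44.0% of these stretches. A GC box stood in the 250 bases before 42.6% of 35116 promoters in the reference, so its presence in NRP2 and PGF is common. The letters ACGTG, the core of the hypoxia response element, occurred in 18.5% of all promoters on either strand and in none of the 12 windows.

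Levels were also summed within each family. VEGF ligand FPKM summed to 47.8 ± 4.00 in Vector and 46.6 ± 10.7 in OE-MMP28, with overlapping groups, since VEGFB took most of it. The share of VEGFA in that sum was 13.5%, 15.6% and 17.9% in the Vector libraries and 12.3%, 11.5% and 7.90% in the OE-MMP28 libraries. The groups did not overlap, with a two-sided exact permutation p of 0.1, the smallest that 3 against 3 allows. Per length of the longest coding transcript, a scale added after the lengths were seen, the share was 39.8% ± 3.88 in Vector and 29.8% ± 5.34 in OE-MMP28, again without overlap.

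**Figure D2:**
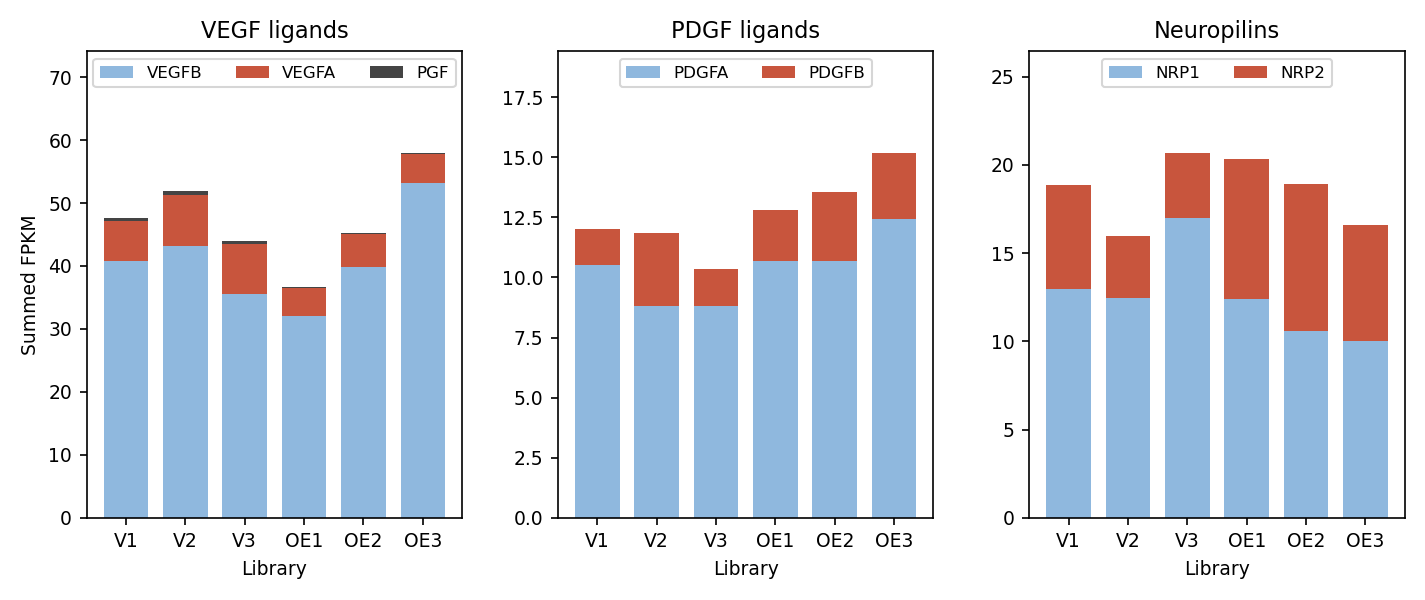
Stacked bars of FPKM for the VEGF ligands, the PDGF ligands and the neuropilins in each library (V1 to V3, Vector; OE1 to OE3, OE-MMP28), with VEGFC and PDGFC left out at 1 count or fewer. The neuropilin bars had like heights in both groups, 18.5 ± 2.38 and 18.6 ± 1.88 FPKM, while the NRP2 segment was taller in every OE-MMP28 library.

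NRP1 and NRP2 together stood at 18.5 ± 2.38 FPKM in Vector and 18.6 ± 1.88 FPKM in OE-MMP28 (two-sided exact permutation p = 0.9). Within that total, NRP1 made up 69.0%, 78.2% and 82.2% in Vector and 61.1%, 56.0% and 60.5% in OE-MMP28. Every OE-MMP28 library thus had a lower share of NRP1 than every Vector library, with a difference of -17.2 percentage points between the means (two-sided exact permutation p = 0.1). The PDGF ligand sum was 11.4 ± 0.911 FPKM in Vector and 13.8 ± 1.22 FPKM in OE-MMP28, without overlap (two-sided exact permutation p = 0.1). PDGFA made up 87.5%, 74.4% and 85.0% of it in Vector and 83.6%, 78.7% and 81.8% in OE-MMP28, a difference within the spread of the libraries (two-sided exact permutation p = 0.9).

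Ordered by deposited FPKM, the Vector libraries ran from VEGFB through NRP1, PDGFA, VEGFA and NRP2 to PDGFB, ANG and PGF, and neighbours in this order had separate ranges except PDGFB and ANG. In OE-MMP28 the order was VEGFB, PDGFA, NRP1, NRP2, VEGFA, PDGFB, ANG and PGF, and PDGFA and NRP1 overlapped. VEGFA stood above NRP2 in each Vector library and below it in each OE-MMP28 library on this scale. Per length of the longest coding transcript that crossing was absent, with VEGFA at 18.4, 21.3 and 18.7 and NRP2 at 16.5, 17.4 and 13.7 in the OE-MMP28 libraries. Both scales differ by a constant for each gene, and which transcripts the cells used was not analysed here.

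Fold changes in these cells varied by chromosome region, so each gene was set beside its neighbours, the tested genes within 10 Mb on either side. All 4 called genes had the opposite sign to their neighbours' median, as did 26.4% of the 3578 called genes with such a median. NRP2 rose by 0.82 among 77 neighbours with a median log2 fold change of -0.42. PGF and ANG, both on chromosome 14, had log2 fold changes of -1.41 and -1.30 where the neighbours' medians were 0.62 (109 genes) and 0.59 (99 genes). VEGFA's 143 neighbours had a median of 0.05, so close to 0 that its sign carries little. NRP1 and VEGFB differed in that both stood between 0 and their neighbours' medians, which were -0.64 (55 genes) and 0.29 (310 genes).

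**Figure D3:**
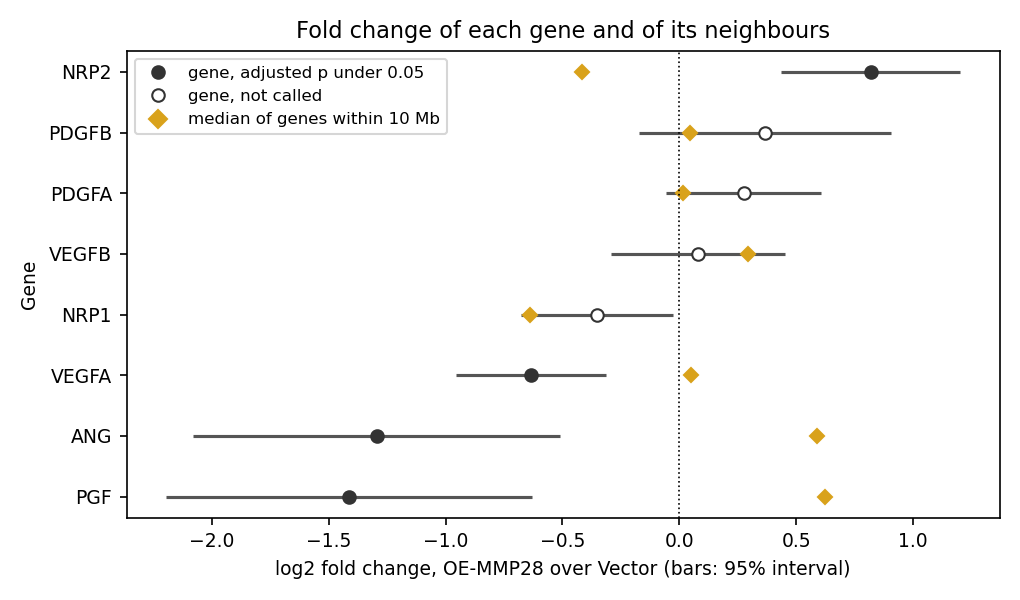
Log2 fold change of each tested gene with its 95% interval (circles, filled where called) and the median log2 fold change of the tested genes within 10 Mb (diamonds). The diamonds of NRP2, PGF and ANG lay on the opposite side of 0 from their circles, and that of NRP1 lay further below 0 than its circle.

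With the neighbours' median subtracted, NRP2 had a log2 fold change of 1.24 (edgeR adjusted p = 0.000117), PGF -2.03 (0.000983), ANG -1.88 (0.00203) and VEGFA -0.68 (0.00477). On that footing NRP1 turned from -0.35 to 0.29 and VEGFB from 0.08 to -0.21, neither of them called (edgeR adjusted p = 0.235 and 0.464). The origin of the regional shifts was not tested.

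Genes whose levels over the 6 libraries ran most like VEGFA and NRP2 were sought among 10432 coding genes by the root mean square difference of centred log2 CPM. VEGFA was closest to N4BP1 (0.0532), FAM200B (0.0544) and ZFP41 (0.0560), all lower in OE-MMP28 with log2 fold changes of -0.56, -0.66 and -0.63. NRP2 was closest to ARNTL2 (0.0792), LCMT2 (0.0824) and SNX18 (0.0922), which were higher by 0.92, 0.73 and 0.83 on the log2 scale. With 6 libraries in 2 groups, likeness of this kind cannot be told apart from the group difference.

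Transcripts of the receptors for VEGF and PDGF ligands, the neuropilin co-receptors aside, were almost absent from the cells. KDR, the main signalling receptor of VEGFA, and PDGFRA had 0 counts in every library, FLT4 had at most 1, FLT1 at most 2 and PDGFRB at most 4. PDGFRL, a receptor-like protein without a kinase, had at most 7. The other ligands of the families were similarly sparse, with 0 counts of PDGFD in any library and at most 5 of VEGFD. None of these 8 genes reached the count filter, so they were not part of the main test. PDGFRB counts were 4, 4 and 4 in Vector and 3, 1 and 3 in OE-MMP28, and the groups' FPKM values did not overlap. Fitted without the filter, the 5 of these genes that entered the fit had adjusted p-values of 0.640 to 0.788 in edgeR.

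In all, 70 genes on 8 lists of partners, processing enzymes, other vessel factors and regulators were examined, of which 43 were tested, 7 were called higher and 7 lower, 32.6% of those tested against 23.4% of all genes tested. Their median log2 fold change was 0.04. The counts called on each list below stand beside 11.7% called higher and 11.6% called lower among all genes tested. Of 12 semaphorins and plexins that work through neuropilins, 7 were tested, with 3 lower and 0 higher. SEMA3A, the classical NRP1 ligand, fell from 3.80 ± 0.264 to 2.17 ± 0.386 FPKM (log2 fold change -0.80, edgeR adjusted p = 0.00232). PLXNA3, a plexin that signals beside neuropilins, fell from 12.6 ± 1.94 to 6.10 ± 0.823 FPKM (log2 fold change -1.03, adjusted p = 0.000150). SEMA3B was also lower (log2 fold change -0.74, adjusted p = 0.0280), but Vector replicate 2 at 32.5 FPKM was far above the other Vector libraries at 13.8 and 16.2 FPKM. Without it the log2 fold change was -0.28 (adjusted p = 0.309), and the call was also lost without OE-MMP28 replicate 1 (0.140), replicate 2 (0.0570) or replicate 3 (0.0611). With all libraries it was lost in DESeq2 (adjusted p = 0.206), in limma voom (0.0539) and in limma on log2(FPKM + 1) (0.190).

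Of the 7 enzymes and cofactors that mature VEGF-C and PDGF chains, 5 were tested and 2 were higher. PLAT, the tissue plasminogen activator that can cleave PDGF-C, rose from 7.86 ± 2.07 to 29.1 ± 4.14 FPKM (log2 fold change 1.90, edgeR adjusted p = 4.59e-07), although its substrate PDGFC was hardly transcribed. PCSK5, a proprotein convertase, was higher by 0.51 on the log2 scale (adjusted p = 0.0194), a call lost without Vector replicate 3 (0.131), OE-MMP28 replicate 1 (0.0659) or OE-MMP28 replicate 2 (0.0921). Among the 3 partners of angiogenin, RNH1, the ribonuclease inhibitor that binds it tightly, was higher while ANG itself was lower. RNH1 went from 16.3 ± 2.56 to 24.5 ± 5.39 FPKM (log2 fold change 0.60, edgeR adjusted p = 0.0168). Its groups overlapped, with 19.2 FPKM in Vector replicate 1 and 18.4 FPKM in OE-MMP28 replicate 1. The RNH1 call was lost without Vector replicate 3 (adjusted p = 0.0672), OE-MMP28 replicate 2 (0.0992) or OE-MMP28 replicate 3 (0.0930). PLXNB2, another of the 3 partners, was well expressed, at 43.0 ± 11.9 FPKM in Vector and 54.8 ± 6.68 FPKM in OE-MMP28. It was not called (edgeR adjusted p = 0.145).

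Other secreted factors that promote vessel growth were split, with 3 higher and 1 lower among 9 tested of 14. MDK, the heparin-binding growth factor midkine, rose from 173 ± 9.30 to 378 ± 64.2 FPKM (log2 fold change 1.14, edgeR adjusted p = 2.94e-05). EDN1, the precursor of endothelin 1, rose from 18.8 ± 7.43 to 36.5 ± 1.58 FPKM (log2 fold change 0.97, adjusted p = 0.00326), and CCN1, a matricellular protein, rose from 58.0 ± 4.71 to 92.3 ± 11.1 FPKM (log2 fold change 0.68, adjusted p = 0.00264). TYMP, thymidine phosphorylase, an enzyme also named platelet-derived endothelial cell growth factor that works inside cells, was lower (log2 fold change -0.81, adjusted p = 0.0192), a call lost without Vector replicate 2 (0.0881), OE-MMP28 replicate 1 (0.0825) or OE-MMP28 replicate 2 (0.0583). In every library MDK exceeded every one of the 10 genes in deposited FPKM.

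Of 11 secreted inhibitors of vessel growth 5 were tested and 2 were lower. THBS1, thrombospondin 1, fell from 12.9 ± 0.183 to 7.67 ± 0.858 FPKM (log2 fold change -0.74, edgeR adjusted p = 0.00120). VASH2, which despite its place on this list is better known for promoting vessel growth, had 6 to 28 counts per library and a log2 fold change of -1.39 (adjusted p = 0.0337). Its call was lost without Vector replicate 2 (0.0626), Vector replicate 3 (0.194), OE-MMP28 replicate 1 (0.106) or OE-MMP28 replicate 3 (0.110), and with all libraries in DESeq2 (0.0543).

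**Figure D4:**
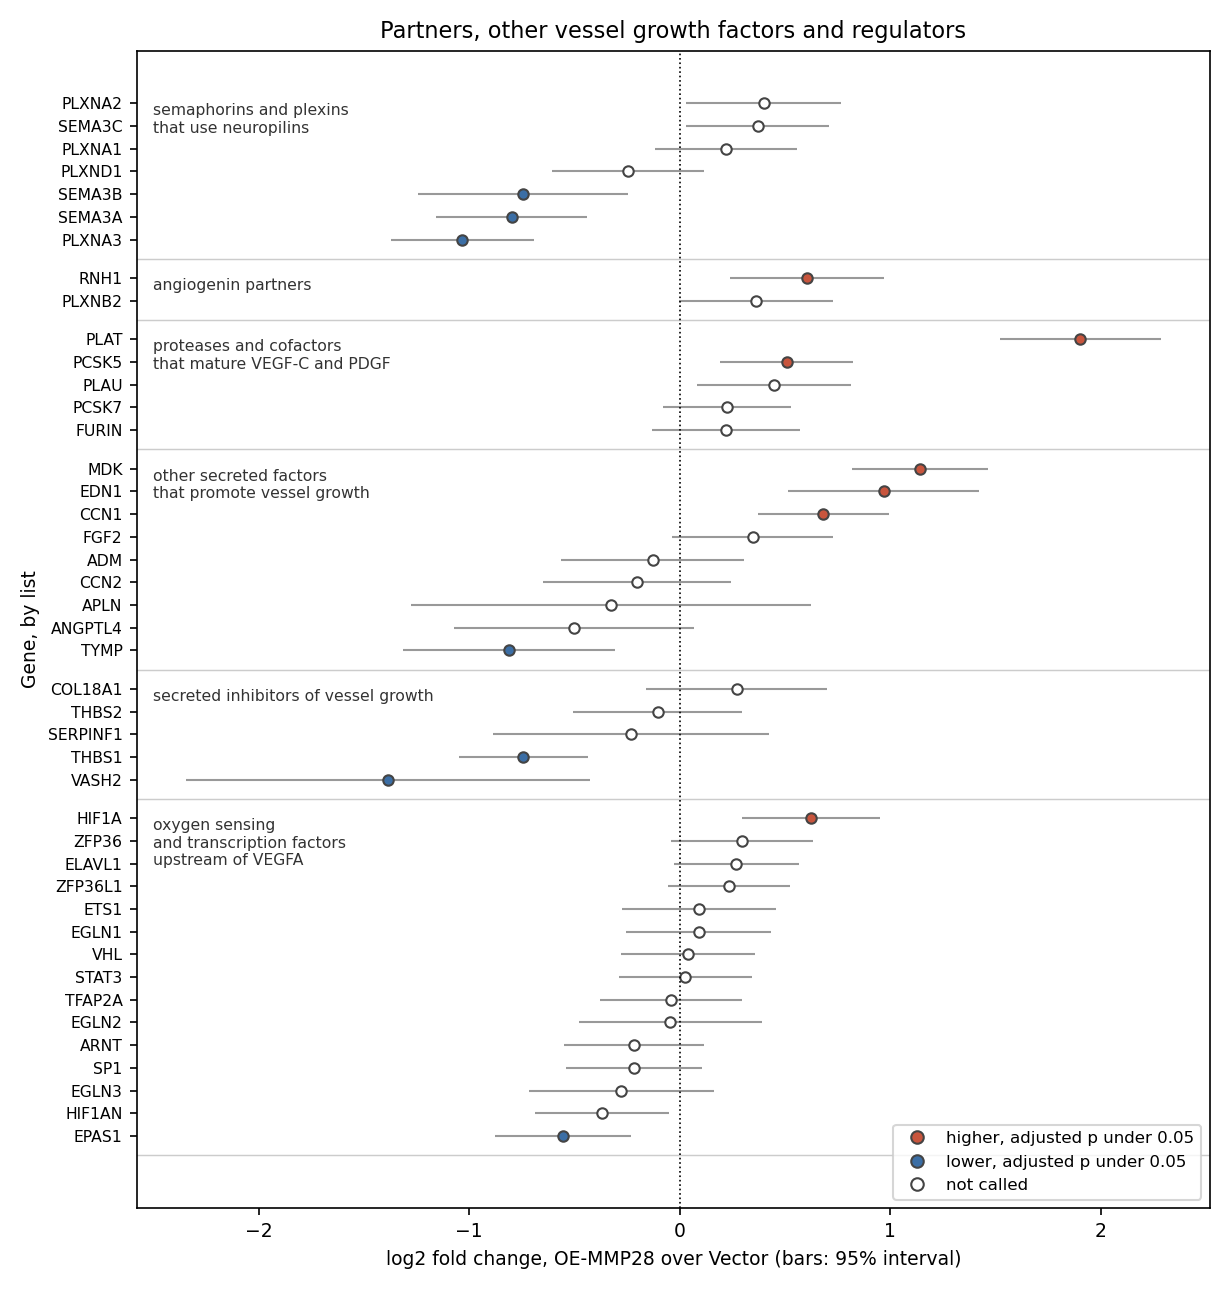
Log2 fold change with 95% interval of the 43 tested genes on the lists of partners and regulators, separated by list and coloured where called (red higher, blue lower). PLAT at 1.90 and VASH2 at -1.39 were the extremes, and 13 of the 15 genes upstream of VEGFA were not called.

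All 15 genes on the list of oxygen sensing and regulators upstream of VEGFA were tested. Of them 1 was higher and 1 lower, 13.3% of those tested against 23.4% of all genes tested. HIF1A, the oxygen-regulated activator of VEGFA transcription, rose from 14.5 ± 0.490 to 22.2 ± 4.09 FPKM (log2 fold change 0.62, edgeR adjusted p = 0.00683) while VEGFA fell. EPAS1, which encodes the related HIF-2α, fell from 12.1 ± 1.11 to 8.18 ± 1.18 FPKM (log2 fold change -0.55, adjusted p = 0.0136). Both followed their regions, with neighbours' medians of 0.50 and -0.41, and after subtraction of those medians neither was called (0.12 with adjusted p = 0.653 for HIF1A, and -0.15 with adjusted p = 0.571 for EPAS1). The EPAS1 call was also lost without Vector replicate 1 (0.0502), OE-MMP28 replicate 2 (0.0579) or OE-MMP28 replicate 3 (0.0636). The oxygen sensors VHL, EGLN1, EGLN2 and EGLN3 were not called, and neither were ARNT, SP1 or STAT3.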

How the data were processed

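Total RNA from 6 samples was made into libraries with the NEBNext Ultra RNA kit. The authors deposited 1 table with a read count and an FPKM value per gene and library. The submitters' processing notes name HISAT2 2.0.5 and featureCounts 1.5.0-p3, and the strand setting of the counting was not given in the sources used here. The deposited FPKM values are counts divided by the length of all exons of a gene and by 1 factor per library. All 58735 identifiers and coordinates matched GENCODE release 29 (GRCh38). The authors' group means, fold changes and p-values in the same table were not used. The number of unmapped per-sample columns was 0.

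Counts were tested with edgeR 4.0.16 (R 4.3.3) after filterByExpr (minimum count 10, minimum total 15) and TMM scaling with the group as the only term. SE was derived from the log2 fold change and its F statistic. Shares and sums were compared by two-sided exact permutation tests. The fits were tested on simulated counts. Library pairs differed beyond sampling noise. Alternatives were leaving out each library, other scalings and filters, DESeq2 1.42.0, limma 3.58.1 (voom, and log2(FPKM + pseudocount) with pseudocounts of 1 and 0.1, with and without a filter at a mean of 0.5 FPKM), a replicate block, and an offset by the local median of genes within 10 Mb (at least 10 genes).

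The 10 genes, the lists and the tests were chosen with earlier results of these data known. All 10 genes are named by rule, as are list genes with an adjusted p under 0.05, the receptors, RNASE4, MMP28, and the 3 nearest genes to VEGFA and to the gene with the smallest adjusted p. PDGFRL, PDGFD, VEGFD, PLXNB2, the marker genes, overlapping genes and the uncalled genes upstream of VEGFA were named outside that rule, after their values were seen.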

Additional observations from a re-analysis of the deposited data

How the results depend on the processing

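Across 19 alternative fits the called genes kept their direction in each one that tested them. The test on log2(FPKM + 1) without a filter called no member of the 10, with VEGFA at -0.55 (adjusted p = 0.0716), PGF at -0.34 (0.136), NRP2 at 0.71 (0.118) and ANG at -0.70 (0.167), so 0 were higher and 0 lower. With the filter, ANG was -0.70 (0.0579) at a pseudocount of 1 and -1.16 (0.0504) at 0.1, and 1 gene was lower in each. PGF, at a mean of 0.338 FPKM, fell under that filter and was not tested in either. VEGFB reversed to -0.14 without OE-MMP28 replicate 3 and to -0.21 with the local-median offset, under which NRP1 reversed to 0.29. Leaving out each library gave log2 fold changes of -1.57 to -1.04 for ANG, -0.14 to 0.23 for VEGFB and 0.19 to 0.77 for PDGFB, 1 to 2 genes higher and 2 to 3 lower.

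Over all genes tested, 1795 were higher and 1784 lower. Leaving out each library gave 985 to 1916 higher and 1044 to 1949 lower, the lowest without OE-MMP28 replicate 2, and 1136 higher without Vector replicate 3. The limma tests on log2(FPKM + pseudocount) called 1009 higher and 965 lower at a pseudocount of 1, and 1000 and 970 at 0.1. Without a filter they called 362 and 308. Limma voom called 1758 higher and 1719 lower, and the local-median offset 1101 higher. On the partner lists, leaving out each library gave 5 to 9 higher and 4 to 7 lower. The limma tests on FPKM gave 4 lower with a pseudocount of 1, and 4 higher and 4 lower with 0.1. Without a filter they gave 2 and 2. The causes were not tested. The difference in the share of VEGFA among VEGF ligands, -5.10 percentage points, became -10.7 for counts without length and -9.97 per longest coding transcript, which weight VEGFA differently by construction. Without each library it was -6.18 to -3.76.

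Same-numbered libraries had correlations of their deviations across genes of 0.0168, 0.00798 and -0.0876, and other pairs had -0.148 to 0.167. With 3 libraries per group, such correlations cannot decide whether the numbers pair them. With the replicate block 1844 genes were higher and 1841 lower, 1 member was higher and 3 were lower, and the calls of the 10 genes did not change (NRP2 0.85, VEGFA -0.63, PGF -1.43, ANG -1.25). Depth limits PGF and ANG, at 51 counts or fewer per library.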
